A study of Mus musculus with 2 samples.

Results

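The 10 genes described here are Klf2, Klf3, Klf4, Klf5, Klf6, Klf7, Klf9, Klf10, Klf13 and Klf16, which encode Krüppel-like transcription factors. They were chosen by symbol from the 23233 genes of the deposited expression table, and all 10 are listed in it. The erythroid member Klf1 was left out of the group. The study sorted cells of ventral skin from 7-day-old wild-type C57BL/6 mice by surface staining for the zinc importer ZIP10. The sample titles name both populations as cells isolated from hair follicles of mice. Cells that bound the antibody are called ZIP10-positive, and cells that did not bind it are called ZIP10-negative. Both came from skin digested with dispase and collagenase, and both were stained with 7-AAD, a dye that enters dead cells. Each population gave 1 library of polyadenylated RNA, so no difference below has a replicate check and none has a p-value. The sources used here do not give the number of animals or any pooling.

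Krüppel-like factors are DNA-binding proteins with C2H2 zinc fingers at the carboxyl end, through which they recognise GC-rich and CACCC-type sequences. The amino-terminal parts differ and recruit different partners, by which the family is divided into subgroups. Members of subgroup 2, such as Klf2, Klf4, Klf5, Klf6 and Klf7, are mostly activators that bind acetyltransferases. Klf3, of subgroup 1, recruits the co-repressor CtBP. Klf9, Klf10, Klf13 and Klf16, of subgroup 3, bind the co-repressor SIN3. In mouse skin Klf4 is known for its role in forming the epidermal barrier and Klf5 for its expression in proliferating epithelium. Klf2 is known from quiescent T cells and from endothelium under flow.

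Promoter windows are shown for the genes at the ends of the range described below, because KLF proteins bind GC boxes and CACCC boxes and the genes themselves carry such letters. Of the 10 genes 7 had a window of 300 bases in the RefSeq table of build GRCm38.p6, from 250 bases before to 50 bases after the annotated start. Klf5, Klf10 and Klf16 are named only. The windows of Klf6 (chr13:5861239-5861538 on the plus strand) and Klf2 (chr8:72318812-72319111 on the plus strand) belong to the genes with the highest ratios between the libraries among these 7. The windows of Klf7 (chr1:64121340-64121639 on the minus strand) and Klf9 (chr19:23140976-23141275 on the plus strand) belong to those with the lowest. Sequences run 5′ to 3′ along the gene, and capitals mark the GC box GGGCGG and the CACCC box CACCC, each on either strand.
Klf6: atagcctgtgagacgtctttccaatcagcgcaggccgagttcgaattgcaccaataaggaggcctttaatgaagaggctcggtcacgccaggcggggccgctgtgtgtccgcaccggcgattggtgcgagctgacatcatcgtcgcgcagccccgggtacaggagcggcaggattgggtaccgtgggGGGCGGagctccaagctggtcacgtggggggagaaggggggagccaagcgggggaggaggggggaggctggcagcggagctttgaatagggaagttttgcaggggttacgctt
Klf2: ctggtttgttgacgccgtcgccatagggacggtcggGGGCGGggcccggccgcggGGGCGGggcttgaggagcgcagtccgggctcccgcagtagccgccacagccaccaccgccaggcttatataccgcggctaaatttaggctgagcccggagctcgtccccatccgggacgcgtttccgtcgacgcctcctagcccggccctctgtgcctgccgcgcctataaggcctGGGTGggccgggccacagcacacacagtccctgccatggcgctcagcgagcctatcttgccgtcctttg
Klf7: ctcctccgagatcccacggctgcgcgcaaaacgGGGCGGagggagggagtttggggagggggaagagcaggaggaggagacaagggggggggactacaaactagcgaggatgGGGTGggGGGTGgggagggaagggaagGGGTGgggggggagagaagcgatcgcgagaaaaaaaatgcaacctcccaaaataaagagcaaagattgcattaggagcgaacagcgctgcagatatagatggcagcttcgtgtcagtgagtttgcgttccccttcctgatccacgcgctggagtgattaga
Klf9: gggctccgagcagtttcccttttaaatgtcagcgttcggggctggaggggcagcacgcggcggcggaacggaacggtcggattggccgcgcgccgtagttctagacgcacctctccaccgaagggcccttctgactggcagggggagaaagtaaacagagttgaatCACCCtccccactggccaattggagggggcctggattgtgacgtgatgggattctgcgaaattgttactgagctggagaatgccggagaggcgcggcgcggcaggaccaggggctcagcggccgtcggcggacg

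A GC box stood in 6 of the 7 windows, against 35.7% of all 32851 windows of this length in the table. Klf3 had 6 matches, Klf4 had 4, Klf13 had 3 and Klf2 had 2, while Klf9 had none. A CACCC box stood in 5 of the 7 windows, against 57.5% of all windows, and Klf3 and Klf7 had 5 and 3 matches. Klf4 and Klf6 had no CACCC match in this window. The CCAAT box, searched as CCAAT on either strand, stood in 3 of the 7 windows and in 37.4% of all. The letters TATAAA stood in none of the 7 windows, against 13.6% of all windows. The G and C content of the 7 windows lay between 58.3% and 76.7%, above the median of 52.7% of all windows. The GC box was present in the windows of genes at both ends of the range, Klf6 and Klf2 as well as Klf7.

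All 10 Klf genes were detected in both libraries at moderate levels. Values are in RPKM, reads scaled by transcript length and by library size, so levels can be compared between genes per length. Among the 12249 genes that reached 1 RPKM in a library, the Klf genes lay between percentile 34.0 and 78.7 in ZIP10-positive cells and between 52.6 and 84.9 in ZIP10-negative cells. The summed level of the 10 genes was 116.2 RPKM in ZIP10-positive cells and 72.8 RPKM in ZIP10-negative cells, a ratio of 1.60. The ratio of the median gene between the libraries was 1.97, so the Klf genes as a sum lay below it. Globin genes made up 3.46% of the summed RPKM of the ZIP10-positive library and 59.4% of that of the ZIP10-negative library. Ratios as deposited are not adjusted for this difference in make-up. All 10 Klf genes passed the filter of 1 RPKM in both libraries, and none was listed at 0.

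Depth was low, at an estimated 2780130 reads for ZIP10-positive cells and 2711940 reads for ZIP10-negative cells. Read numbers were estimated for each Klf gene from the whole-number ratio of its values and from its annotated transcript length. The whole-number pair was multiplied to lie nearest to the number expected from length, so closeness to it is partly fixed. For Klf4 and Klf7 the smallest pair is so small that length alone sets the number. For Klf3 and Klf9 the chosen number still differed from it, by -15.8% and -28.5%. The exact 95% intervals given below rest on these read numbers and cover counting error only. The gene of the sorted protein, Slc39a10, had 49.4 RPKM in ZIP10-positive cells and 11.1 RPKM in ZIP10-negative cells.

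Among the activators of subgroup 2, Klf6, a widely expressed factor induced by injury, had the highest level of all 10 genes in ZIP10-positive cells. It stood at 24.97 RPKM in ZIP10-positive cells, and its exact 95% Poisson interval ran from 22.1 to 28.1 RPKM. In ZIP10-negative cells it stood at 10.2 RPKM, with an interval of 8.38 to 12.3 RPKM. The intervals did not overlap, and the ratio was 2.45, with an exact binomial interval of 1.96 to 3.08 from an estimated 279 reads in ZIP10-positive and 111 reads in ZIP10-negative cells. Relative to the median gene the ratio was 1.24, with an interval of 0.995 to 1.56 that includes equality.

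Klf2, the factor of quiescent T cells and endothelium, stood at 9.58 RPKM in ZIP10-positive cells and 4.34 RPKM in ZIP10-negative cells. These values rest on an estimated 43 reads in ZIP10-positive and 19 reads in ZIP10-negative cells, the fewest of any Klf gene in each library. The ratio was 2.21 with an interval of 1.26 to 4.01. Divided by that of the median gene it was 1.12, from 0.639 to 2.04, so Klf2 was not separable from the median gene at this depth.

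As deposited, the epidermal pair Klf5 and Klf4 was closer between the libraries than Klf6 and Klf2. Klf5, a factor of proliferating epithelium, stood at 12.99 RPKM in ZIP10-positive cells and 7.75 RPKM in ZIP10-negative cells. Its ratio was 1.68 with an interval of 1.22 to 2.32, and relative to the median gene 0.851, from 0.620 to 1.18. Klf4, the barrier factor, stood at 10.6 RPKM in ZIP10-positive cells and 8.17 RPKM in ZIP10-negative cells. Its ratio was 1.30 with an interval of 0.927 to 1.83 that includes equality. Set against the median gene Klf4 was lower in ZIP10-positive cells, at 0.660 with an interval of 0.470 to 0.930.

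Within a library, the level of Klf5 was 1.22 times that of Klf4 in ZIP10-positive cells and 0.948 times in ZIP10-negative cells. Such a quotient of genes of the same library does not depend on how the libraries are scaled. The quotients differed by a factor of 1.29, with an exact conditional interval of 0.802 to 2.07, so no difference in the balance of Klf5 and Klf4 was detectable at this depth. The same holds for Klf2 over Klf4, at 0.902 in ZIP10-positive and 0.531 in ZIP10-negative cells, a factor of 1.70 with an interval of 0.868 to 3.39.

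Klf7, a factor known from neurons and from fat cells, had the lowest level of the 10 genes in both libraries. It stood at 3.81 RPKM in ZIP10-positive cells and 3.91 RPKM in ZIP10-negative cells, a ratio of 0.975 with an interval of 0.705 to 1.35. This ratio is the one that equal read numbers give. Against the median gene Klf7 was lower in ZIP10-positive cells, at 0.495 with an interval of 0.358 to 0.685. The level of Klf6 was 6.55 times that of Klf7 in ZIP10-positive cells and 2.60 times in ZIP10-negative cells. The factor between these quotients was 2.51 with an interval of 1.68 to 3.75.

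**Figure D1:**
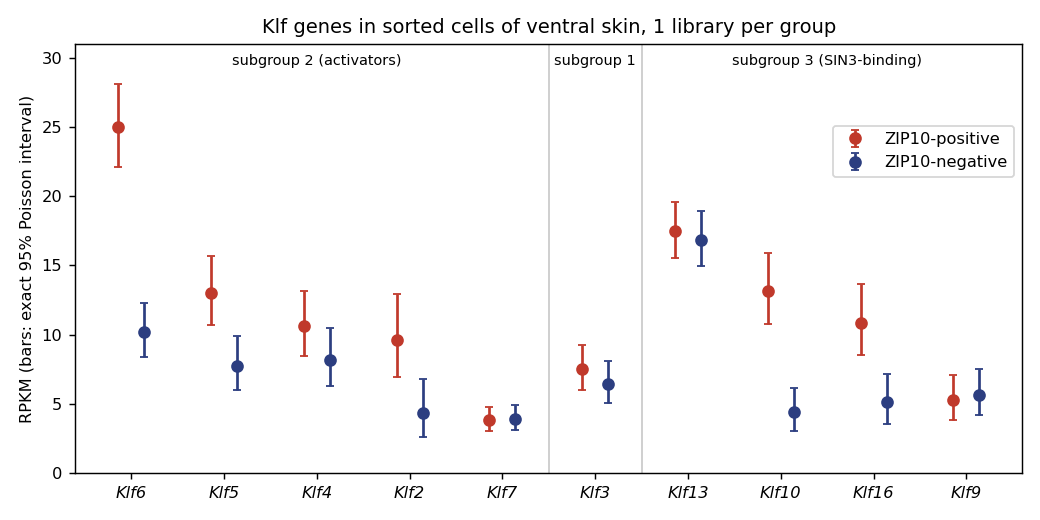
Level of each Klf gene in RPKM (vertical axis) in the ZIP10-positive library (red, left) and the ZIP10-negative library (blue, right), grouped by subgroup. Bars are exact 95% Poisson intervals from estimated reads. Klf6 and Klf10 are farthest apart, at 24.97 and 13.1 RPKM in ZIP10-positive cells against 10.2 and 4.41 RPKM in ZIP10-negative cells, while the intervals of Klf4, Klf7, Klf3, Klf13 and Klf9 overlap.

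Klf3, the CtBP-recruiting repressor of subgroup 1, stood at 7.49 RPKM in ZIP10-positive cells and 6.46 RPKM in ZIP10-negative cells. The ratio was 1.16 with an interval of 0.842 to 1.60, and the groups' Poisson intervals overlapped. Relative to the median gene it was lower in ZIP10-positive cells, at 0.589 with an interval of 0.427 to 0.813. The quotient of Klf2 over Klf3 was 1.28 in ZIP10-positive cells and 0.672 in ZIP10-negative cells. Its factor of 1.90 had an interval of 0.984 to 3.76, which includes equality.

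As deposited, Klf10 and Klf16 of the SIN3-binding subgroup 3 were higher in ZIP10-positive cells, while the intervals of Klf13 and Klf9 included equality. Relative to the median gene Klf10 was higher, Klf16 was not separable from it, and Klf13 and Klf9 were lower. Klf10, also named TGF-beta-inducible early gene, had the highest ratio of the 10 genes. It stood at 13.1 RPKM in ZIP10-positive cells, with a Poisson interval of 10.7 to 15.9 RPKM, and at 4.41 RPKM in ZIP10-negative cells, with an interval of 3.05 to 6.16 RPKM. The ratio was 2.98, with an interval of 2.01 to 4.53 from an estimated 104 reads in ZIP10-positive and 34 reads in ZIP10-negative cells. Divided by that of the median gene it was 1.51, from 1.02 to 2.30.

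Klf16, a factor first described as a regulator of dopamine receptor genes, stood at 10.9 RPKM in ZIP10-positive cells and 5.11 RPKM in ZIP10-negative cells. The ratio was 2.12 with an interval of 1.40 to 3.29, and 1.08 relative to the median gene, from 0.709 to 1.67. Klf13, a factor known from T lymphocytes, where it acts on the chemokine gene Ccl5, was the most abundant Klf gene of ZIP10-negative cells. It stood at 17.5 RPKM in ZIP10-positive cells and 16.8 RPKM in ZIP10-negative cells, from an estimated 301 reads in ZIP10-positive and 283 reads in ZIP10-negative cells. Its ratio of 1.04 had the narrowest interval of the 10 genes, 0.879 to 1.22, and relative to the median gene it was 0.526, from 0.446 to 0.621.

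Klf9, which is induced by glucocorticoid and thyroid hormone, stood at 5.28 RPKM in ZIP10-positive cells and 5.66 RPKM in ZIP10-negative cells. The ratio was 0.934 with an interval of 0.607 to 1.44, and 0.474 relative to the median gene, from 0.308 to 0.729. The level of Klf10 was 2.49 times that of Klf9 in ZIP10-positive cells and 0.779 times in ZIP10-negative cells, a factor of 3.19 with an interval of 1.75 to 5.83. The quotient of Klf16 over Klf13 was 0.622 in ZIP10-positive cells and 0.304 in ZIP10-negative cells, a factor of 2.05 with an interval of 1.30 to 3.27. Quotients were computed for 6 pairs, chosen after the values were seen. They depend on transcript length where the genes differ in length, since the ratio between the libraries moved with length across all genes. Divided by the factor between genes of the same 2 lengths, Klf16 over Klf13 gave 1.41, with an interval of 0.893 to 2.25 that includes equality. Klf10 over Klf9 gave 2.66, from 1.46 to 4.86, and Klf6 over Klf7 gave 1.99, from 1.34 to 2.97.

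In the order of levels, Klf6 stood above Klf13 in ZIP10-positive cells and Klf13 above Klf6 in ZIP10-negative cells, in each case without overlap of the Poisson intervals. All other neighbours in the order overlapped, in both libraries. In ZIP10-positive cells the order went on with Klf10, Klf5, Klf16, Klf4, Klf2, Klf3, Klf9 and Klf7. In ZIP10-negative cells it went on with Klf4, Klf5, Klf3, Klf9, Klf16, Klf10, Klf2 and Klf7. Klf10 thus ranked 3 in ZIP10-positive and 8 in ZIP10-negative cells, while Klf7 ranked 10 in both.

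As a share of the summed Klf level, Klf6 made up 21.5% in ZIP10-positive cells and 13.99% in ZIP10-negative cells. Klf13 made up 15.0% in ZIP10-positive cells and 23.1% in ZIP10-negative cells. Klf10 made up 11.3% in ZIP10-positive cells and 6.05% in ZIP10-negative cells. The activators of subgroup 2 together made up 53.3% in ZIP10-positive cells and 47.2% in ZIP10-negative cells, and the factors of subgroup 3 made up 40.2% in ZIP10-positive cells and 43.96% in ZIP10-negative cells. These shares and the order of levels do not depend on the scaling between the libraries. They were not adjusted for transcript length, with which the ratio between the libraries moved across all genes.

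**Figure D2:**
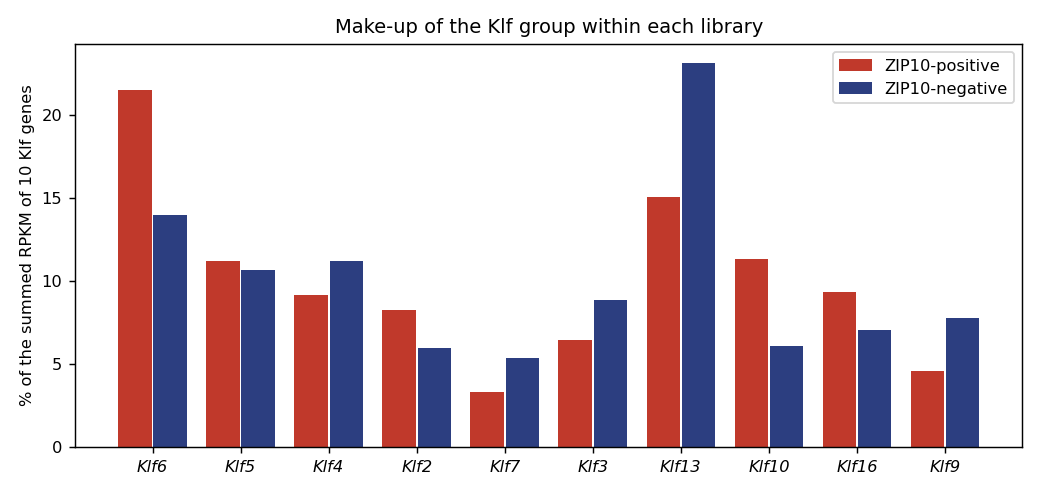
Share of each gene in the summed RPKM of the 10 Klf genes, in percent (vertical axis), in the ZIP10-positive library (red, left bar) and the ZIP10-negative library (blue, right bar). Klf6 holds the largest share of the ZIP10-positive library, 21.5%, and Klf13 that of the ZIP10-negative library, 23.1%.

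As deposited, 8 of the 10 genes had a higher value in ZIP10-positive cells, and the same was true of 82.7% of all genes compared. On the log2(RPKM + 1) scale, which understates differences of low genes, 2 of the 10, Klf6 and Klf10, were at least 2-fold higher in ZIP10-positive cells. Of all genes compared 44.1% were. None of the 10 was at least 2-fold lower, against 3.55% of all genes. The median log2 ratio of the 10 was 0.51, against 0.87 over all genes compared.

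On the log2(RPKM + 1) scale set to the median gene, none of the 10 was at least 2-fold higher, against 14.7% of all genes compared. None was at least 2-fold lower on that scale, against 11.4%. Without a pseudocount Klf7 and Klf9 were past 2-fold lower, at ratios of 0.495 and 0.474 relative to the median gene. Of the 10, 4 lay above 0, namely Klf10, Klf6, Klf2 and Klf16, against 54.5% of all genes. The median log2 ratio of the 10 was -0.38, against 0.094 over all genes. When the 50 most abundant genes were left out of the scaling, Klf2 and Klf16 also turned lower, to log2 ratios of -0.13 and -0.18, which left 2 of the 10 above 0, against 42.6% of all genes, with 0 of the 10 higher and 3 lower by 2-fold or more, against 10% and 16.8%. Without globin genes and Rn45s in the scaling, Klf6 turned lower too, to -0.095, and Klf10 alone of the 10 stayed above 0, at 0.16, against 38.7% of all genes, with 0 of the 10 higher and 4 lower by 2-fold or more, against 8.99% and 19.2%.

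**Figure D3:**
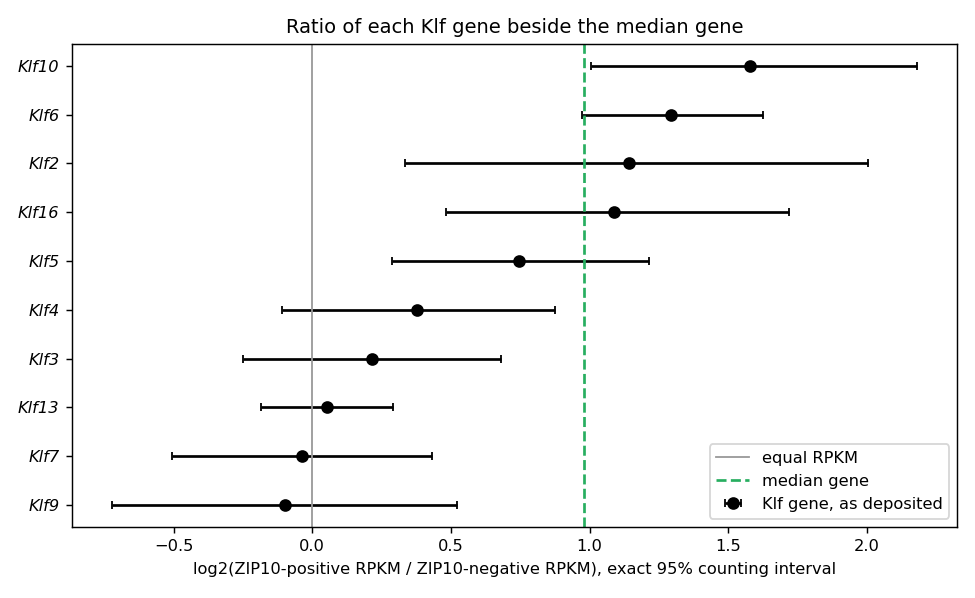
Log2 ratio of ZIP10-positive to ZIP10-negative RPKM without a pseudocount (horizontal axis) for each Klf gene, with exact 95% counting intervals. The grey line marks equal RPKM and the dashed green line the median gene, at 0.98. Klf10 lies to the right of the dashed line with its whole interval, and Klf4, Klf3, Klf13, Klf7 and Klf9 lie to the left of it with theirs.

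The ratio between the libraries moved with transcript length across all genes, which touches the Klf genes because most of their transcripts are long. Among 10751 compared genes with a coding transcript in the reference, the tenth with the shortest transcripts had a median log2 ratio of 1.60 and the tenth with the longest 0.32. Spearman's rho between length and log2 ratio was -0.40 across these genes, which share both libraries and are not independent replicates. Of the 10 Klf genes 8 had a transcript longer than the median of 2986 bases. The longest were those of Klf7, at 7662 bases, and Klf13, at 6396 bases, and the shortest was that of Klf2, at 1847 bases. Lengths come from an annotation that may differ from the one the authors used.

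Set against the running median of 1000 genes of similar length, a comparison chosen after the data were seen, the values of the longest Klf genes moved up. Klf6 was above genes of its length by a log2 ratio of 0.56 and Klf10 by 0.51. Of all genes with a length 50% lay above theirs. The other 8 Klf genes lay below theirs, from -0.015 for Klf16 to -0.70 for Klf9, with Klf4 at -0.54. Klf7 and Klf13 lay at -0.35 and -0.38, in place of -0.80 and -0.87 relative to the median gene. None of the 10 was at least 2-fold above or below genes of its length, against 8.3% and 12.1% of all genes. The median of the 10 was -0.23.

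**Figure D4:**
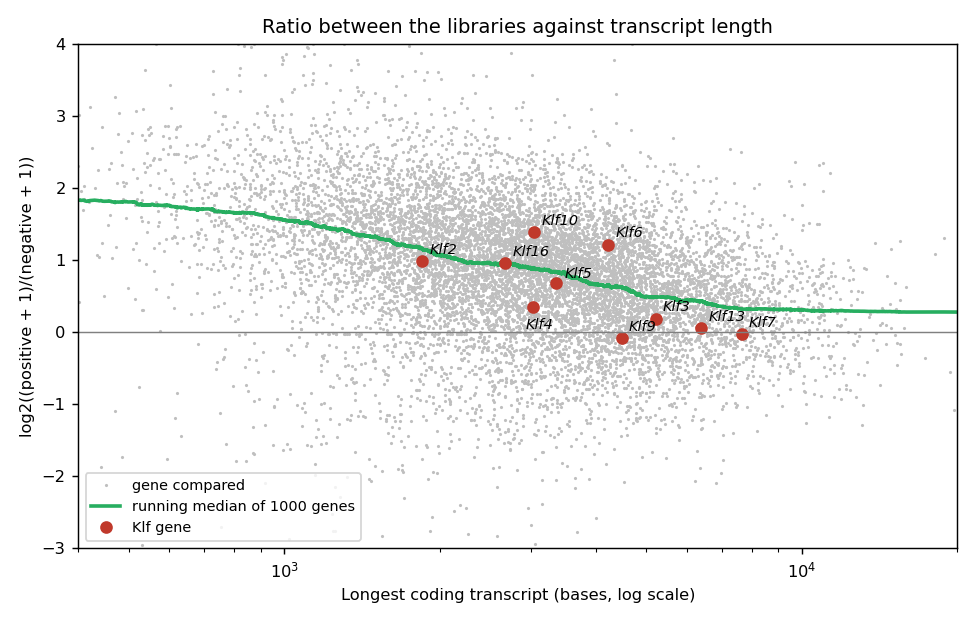
Log2 ratio of ZIP10-positive to ZIP10-negative values with a pseudocount of 1 RPKM (vertical axis) against the length of the longest coding transcript in bases (horizontal log axis). Grey points are genes compared, the green line is their running median over 1000 genes, and red points are Klf genes; 113 genes lie outside the plotted range. The green line falls with length, and Klf6 and Klf10 lie above it.

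Of the other KLF genes, Klf15 and Klf11 reached 1 RPKM. Klf15, a factor of fat and muscle that responds to glucocorticoid, stood at 5.15 RPKM in ZIP10-positive cells and 1.41 RPKM in ZIP10-negative cells, with a log2 ratio of 1.35 as deposited and 0.65 relative to the median gene. Klf11, a SIN3-binding relative of Klf10, stood at 2.57 RPKM in ZIP10-positive cells and 0.974 RPKM in ZIP10-negative cells, with a log2 ratio of 0.85 as deposited and 0.26 relative to the median gene. As deposited 1 of the 2 was higher by 2-fold or more, against 44.1% of all genes. Relative to the median gene 0 were, against 14.7%. The CtBP-binding Klf8 and Klf12 were listed at 0 in ZIP10-positive cells and stood at 0.260 and 0.400 RPKM in ZIP10-negative cells. Klf14 and Klf17 were listed at 0 in both. A listed 0 in this table need not mean that no RNA was present.

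The related SP factors also bind GC boxes. Of 9 listed, 5 reached 1 RPKM, namely Sp1, Sp2, Sp3, Sp6 and Sp7. As deposited none of these was 2-fold higher or lower, against 44.1% and 3.55% of all genes. Relative to the median gene none was either, against 14.7% and 11.4%. The median of their log2 ratios was 0.26 as deposited and -0.51 relative to the median gene. Sp1 stood at 7.69 RPKM in ZIP10-positive cells and 4.45 RPKM in ZIP10-negative cells, and Sp3 at 7.78 RPKM in ZIP10-positive cells against 5.41 RPKM in ZIP10-negative cells. With its long transcript of 7754 bases Sp1 lay above genes of its length, by a log2 ratio of 0.36. Sp6, known as epiprofin in skin and teeth, stood at 5.89 RPKM in ZIP10-positive cells and 4.76 RPKM in ZIP10-negative cells. Sp4 stayed below 1 RPKM, at 0.581 RPKM in ZIP10-positive cells and 0.265 RPKM in ZIP10-negative cells, as did Sp9, at 0.138 RPKM in ZIP10-positive cells and 0.282 RPKM in ZIP10-negative cells. Sp5 and Sp8 were listed at 0 in both libraries.

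Among 9 partners of KLF proteins, 4 were higher by 2-fold or more in ZIP10-positive cells and 0 lower, against 44.1% and 3.55% of all genes. Their median log2 ratio was 0.88 as deposited and 0.082 relative to the median gene. The SIN3 subunit gene Sin3b stood at 94.96 RPKM in ZIP10-positive cells and 24.6 RPKM in ZIP10-negative cells. The other SIN3 gene of the list, Sin3a, stood at 3.76 RPKM in ZIP10-positive cells and 4.26 RPKM in ZIP10-negative cells. Relative to the median gene the log2 ratio was 0.95 for Sin3b and -0.92 for Sin3a. The histone deacetylase gene Hdac2 stood at 48.7 RPKM in ZIP10-positive cells and 10.8 RPKM in ZIP10-negative cells, and it alone of the 9 also passed 2-fold above the median gene. Ctbp1, which encodes the partner of Klf3, stood at 57.5 RPKM in ZIP10-positive cells and 23.7 RPKM in ZIP10-negative cells. The ratio was 2.42 for Ctbp1 and 1.18 for the other CtBP gene, Ctbp2. Relative to the median gene their log2 ratios were 0.29 and -0.68. Of the ubiquitin ligases that act on KLF proteins, Wwp1 had 2.80 RPKM in ZIP10-positive cells and 2.72 RPKM in ZIP10-negative cells. Fbxw7 had 1.65 RPKM in ZIP10-positive cells and 0.381 RPKM in ZIP10-negative cells.

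The kinase pathway upstream of Klf2 and Klf4 in endothelium runs through MEKK3, ERK5 and MEF2 and is restrained by CCM proteins. As deposited its genes were mostly less than 2-fold apart. Of 9 genes, 2 were higher and 1 lower by 2-fold or more as deposited, against 44.1% and 3.55% of all genes. Set to the median gene there were 0 higher and 1 lower, against 14.7% and 11.4%. That 1 was Mef2a, a MEF2 factor, at 1.62 RPKM in ZIP10-positive cells and 4.28 RPKM in ZIP10-negative cells. Others stopped just short of 2-fold on that scale, where the pseudocount understates differences of low genes. They were Map2k5 at a log2 ratio of 0.95, and Map3k3, Mapk7 and Ccm2 at -0.93, -0.93 and -0.98. The median log2 ratio of the 9 was -0.083 as deposited and -0.76 relative to the median gene. Map2k5, the kinase that activates ERK5, stood at 10.1 RPKM in ZIP10-positive cells and 2.33 RPKM in ZIP10-negative cells. The CCM gene Pdcd10 stood at 20.7 RPKM in ZIP10-positive cells and 6.63 RPKM in ZIP10-negative cells, and Ccm2 at 11.6 RPKM in ZIP10-positive cells against 12.3 RPKM in ZIP10-negative cells. Among genes known to respond to Klf2, Thbd, which encodes the thrombin-binding protein thrombomodulin, stood at 16.96 RPKM in ZIP10-positive cells and 11.4 RPKM in ZIP10-negative cells. Itgb7, an integrin chain of lymphocytes, stood at 19.3 RPKM in ZIP10-positive cells and 30.6 RPKM in ZIP10-negative cells.

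Immediate early genes, among which Klf2, Klf4, Klf6 and Klf10 are often counted since they respond quickly to stress and growth signals, went in both directions relative to the median gene. Of 20 listed, 19 were compared, 8 were higher in ZIP10-positive cells by 2-fold or more and 0 were lower as deposited, against 44.1% and 3.55% of all genes. On the scale set to the median gene 2 of the 19 were higher and 3 lower, against 14.7% and 11.4% of all genes. Nr4a1 at a log2 ratio of 1.88 and Atf3 at 1.38 were the 2 higher genes. The 3 lower ones were Fosb at -1.57, Zfp36 at -1.03 and Socs3, with 22.4 RPKM in ZIP10-positive cells against 28.9 RPKM in ZIP10-negative cells. The list median was 0.94 as deposited and 0.038 relative to the median gene. Fos stood at 47.5 RPKM in ZIP10-positive cells and 23.2 RPKM in ZIP10-negative cells, and Junb at 64.97 RPKM in ZIP10-positive cells against 27.9 RPKM in ZIP10-negative cells. Of 6 genes induced by TGF-beta, the signal that induces Klf10, 4 were compared. As deposited 3 of these were higher by 2-fold or more, against 44.1% of all genes. Once set to the median gene 0 were, against 14.7%. The median was 1.18 as deposited and 0.36 relative to the median gene. Tgif1 stood at 19.3 RPKM in ZIP10-positive cells and 7.23 RPKM in ZIP10-negative cells. Of 8 glucocorticoid-linked genes, 7 were compared. As deposited 2 of these were higher and 0 lower by 2-fold or more, against 44.1% and 3.55% of all genes. Set to the median gene, 0 of the 7 passed 2-fold upward and 2 downward, against 14.7% and 11.4% of all genes. The median was 0.79 as deposited and -0.16 relative to the median gene. Of these, Sgk1 stood at 30.5 RPKM in ZIP10-positive cells and 9.22 RPKM in ZIP10-negative cells, while the clock gene Per1 stood at 4.92 RPKM in ZIP10-positive cells against 6.71 RPKM in ZIP10-negative cells.

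Markers of several cell types moved between the libraries beside the Klf genes, and their part in the Klf values was not tested. In sorted populations sequenced in bulk, fewer cells of a type and less RNA per cell cannot be told apart. Of 9 T cell markers, 9 were lower in ZIP10-positive cells by 2-fold or more, against 3.55% of all genes compared. Their summed level was 142 RPKM in ZIP10-positive cells against 844 RPKM in ZIP10-negative cells, and none was at 0. Of the Klf genes introduced above with T cells, Klf2 was not separable from the median gene and Klf13 lay below it, at ratios of 1.12 and 0.526. Which other Klf genes T cells express was not examined. Of 12 endothelial markers 5 reached 1 RPKM and 2 of these were higher by 2-fold or more, against 44.1% of all genes. The 2 were Egfl7 and Tie1, which passed the filter only through the ZIP10-positive library. The whole list had sums of 29.8 RPKM in ZIP10-positive cells against 6.46 RPKM in ZIP10-negative cells. Most of the ZIP10-positive sum was Egfl7, at 16.5 RPKM in ZIP10-positive cells against 0.321 RPKM in ZIP10-negative cells, while Emcn was listed at 0 in both libraries and Tek, Tie1 and Robo4 in ZIP10-negative cells. Among macrophage markers, 8 of 8 compared were higher by 2-fold or more, against 44.1% of all genes. Of these only Cd68 reached 1 RPKM in ZIP10-negative cells. The rest passed the filter only through the library where they were high, so that count was largely fixed by the filter. The sums of the macrophage list were 873 RPKM in ZIP10-positive cells against 11.7 RPKM in ZIP10-negative cells. In ZIP10-negative cells 6 of the 9 measured were listed at 0, namely Lyz2, Aif1, Mrc1, C1qa, C1qb and C1qc.

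Keratinocyte markers belong to the cells where Klf4 and Klf5 act. Of 8 basal keratinocyte markers 6 were higher and 0 lower by 2-fold or more, against 44.1% and 3.55% of all genes. The summed level of the 8 was 2360 RPKM in ZIP10-positive cells and 800.1 RPKM in ZIP10-negative cells. Their median log2 ratio was 1.17 as deposited and 0.28 relative to the median gene. It turned to -0.0027 without the 50 most abundant genes in the scaling, and to -0.099 without globin genes and Rn45s. Of 11 measured suprabasal and cornified markers 9 were compared. As deposited 2 of these were higher and 1 lower by 2-fold or more, against 44.1% and 3.55% of all genes. The sums were 74.6 RPKM in ZIP10-positive cells against 65.8 RPKM in ZIP10-negative cells. On the log2(RPKM + 1) scale the lower gene was Krt10, a keratin of differentiating cells, at 11.03 RPKM in ZIP10-positive cells and 31.1 RPKM in ZIP10-negative cells. Without a pseudocount Ivl was also past 2-fold lower, at 0.645 RPKM in ZIP10-positive cells and 1.30 RPKM in ZIP10-negative cells. These values rest on about 3.1 and 6.1 reads by its length. In the other direction Lor was past 2-fold higher, at 5.47 RPKM in ZIP10-positive cells and 2.57 RPKM in ZIP10-negative cells. With the pseudocount and set to the median gene there were 1 higher marker and 2 lower ones, against 14.7% and 11.4% of all genes. The ZIP10-negative library listed Tgm1 and Cdsn at 0, and both libraries Sprr1b. The list's median was 0.48 as deposited and -0.35 relative to the median gene. Klf5 and Klf4 lay at -0.21 and -0.54 on that scale.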

How the data were processed

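The values are RPKM as deposited by the authors, a unit taken from the table's name, for 1 library per group. Per the submitters' processing notes, cutadapt, TopHat, Cufflinks and the build mm9 were used, without versions. The annotation and any use of strand are not stated. Input was 10 ng of total RNA, read as single reads of 50 bases, per the labels' protocols. Genes with 1 RPKM or more in a library were compared as log2((positive + 1)/(negative + 1)). The median log2 ratio of the 9620 genes at 1 RPKM or more in both libraries, 0.98, was divided between the libraries for values relative to the median gene.

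Among 1389 genes above 0 but not above 1 RPKM in either library, 68.5% had values in a ratio of whole numbers up to 20, times 0.975. Depth was estimated on 89 such genes that have 1 transcript in the reference, with 38.2% at the most frequent value, with transcript lengths shortened by 199 bases. For each Klf gene the smallest whole-number pair was multiplied to lie nearest to the reads expected from its longest coding transcript in GENCODE vM21. Reads carry no molecular identifiers, so intervals cover counting error only.

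Members, lists and rules were chosen with earlier results of these data known. The rule names all 10 members, all genes of the KLF, SP and ubiquitin ligase lists, and up to 4 of the most abundant of each other list, of which 1 is not reported here. Further marker genes listed at 0, Sin3a, Ctbp2, Map3k3, Mapk7, Mef2a, Nr4a1, Atf3, Fosb, Socs3, Zfp36, Ivl and Lor were named after their values were seen. Of 21 lists, those for mast cells, erythroid cells, fibroblasts, pericytes, fat cells and melanocytes are given in the closing section, with the C/EBP and PPAR list. With 2 libraries no gene was named for likeness of pattern, and protein sequences were not used here. Alternatives were other pseudocounts, filters and scalings. Python 3.11.15, pandas 2.3.3, numpy 2.4.6, scipy 1.17.1 and matplotlib 3.10.9 were used, and the computation was tested on simulated data.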

Additional observations from a re-analysis of the deposited data

How the results depend on the processing

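Scaling decided most directions. Leaving the 50 most abundant genes out of the scaling, which moved the zero point by 1.29 on the log2 scale, gave the 10 Klf genes a median of -0.66, with 0 genes at least 2-fold higher, 3 lower and 2 above 0, against 10%, 16.8% and 42.6% of all genes. Without globin genes and Rn45s, a shift of 1.39, the median was -0.75, with 0 at least 2-fold higher, 4 lower and 1 above 0, against 8.99%, 19.2% and 38.7% of all genes, and Klf6 turned to -0.095. Gene lists with a median above 0 numbered 18 of 21 as deposited and 10 relative to the median gene, 6 and 5 with these scalings, and 8 relative to genes of similar length. Relative to those genes the Klf median was -0.23, with 0 genes 2-fold higher and 2 above 0. The basal keratinocyte median turned to -0.0027 and -0.099, and that of the C/EBP and PPAR list to -0.050 and -0.14, with the same scalings.

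A pseudocount of 0.1 RPKM gave 4 Klf genes at least 2-fold higher as deposited and 1 lower relative to the median gene, and 5 RPKM gave 0 higher. The shares of all genes at these pseudocounts were not computed, so these counts cannot be set against all genes. Dropping the filter on low values changed no Klf count, and a filter of 5 RPKM left out Klf7, so no median of 10 was computed there. No paired analysis was possible because each group has 1 library. Depth limits Klf2 most, at an estimated 43 reads in ZIP10-positive and 19 reads in ZIP10-negative cells.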

Other observations

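Klf1, the erythroid factor left out of the group, rested on very few reads. It stood at 1.08 RPKM in ZIP10-positive cells, about 4.0 reads by its length, and at a listed 0 in ZIP10-negative cells. The other 7 erythroid markers were lower in ZIP10-positive cells by 2-fold or more, against 3.55% of all genes. Among them was Hba-a1 at 9426 RPKM in ZIP10-positive cells against 160696 RPKM in ZIP10-negative cells, although near-identical globin genes can share reads. At so few reads the value of Klf1 gives no fold and no direction.

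Pparg, a regulator of fat and sebaceous cells, had 7.34 RPKM in ZIP10-positive cells and a listed 0 in ZIP10-negative cells. Its partner Cebpb had 145.9 RPKM in ZIP10-positive cells against 47.6 RPKM in ZIP10-negative cells, and Cebpa had 296 RPKM in ZIP10-positive cells against 216.7 RPKM in ZIP10-negative cells. The 4 genes of the C/EBP and PPAR list had a median log2 ratio of 1.13 as deposited and 0.24 relative to the median gene. Of 7 adipocyte markers 4 were compared, with 2 higher and 0 lower by 2-fold or more, against 44.1% and 3.55% of all genes. Adipoq, Lep and Cidec were listed at 0 in both libraries.

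Of 5 mast cell markers compared 4 were at least 2-fold higher in ZIP10-positive cells, with a median log2 ratio of 3.84. Of 8 fibroblast markers 3 were higher and 0 lower by 2-fold or more, at a median of 0.28, and of 7 pericyte and smooth muscle markers 2 were, with a median of 0.26. None of 6 melanocyte markers was 2-fold apart, and their median was 0.32. Set against the median gene these medians were 2.95, -0.69, -0.35 and -0.44. Of all genes compared 44.1% passed 2-fold upward and 3.55% downward as deposited. On the scale set to the median gene, 4 mast cell, 2 fibroblast, 1 pericyte and 0 melanocyte markers passed upward, against 14.7%. Downward the counts were 0 mast cell, 2 fibroblast, 2 pericyte and 2 melanocyte markers, against 11.4% of all genes.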
